A study of Homo sapiens with 4 samples.

Results

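The genes described here encode heat shock proteins and their J-domain cochaperones in SK-MEL-28, an established human melanoma cell line. They were chosen by symbol. The rule took the HSPA genes with a digit after HSPA, HSP90AA1, HSP90AB1, HSP90B1, HSPD1, HSPE1, HSPH1 and the DNAJA, DNAJB and DNAJC genes. It matched 64 of the 25268 symbols in the table, and 54 of these had a mean of at least 1 FPKM (fragments per kilobase of transcript and per 1000000 mapped fragments) over the 4 libraries, as did 11147 symbols in all. By the main site of the protein, 26 of the 54 were assigned to the cytosol or nucleus, 13 to the endoplasmic reticulum (ER), 9 to mitochondria and 6 to other or mixed sites.

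RNA-Seq compared cells transduced with the empty pTRIPZ vector (vector line) and cells that carry MYC behind a Tet-inducible promoter (MYC line). Both lines came from lentiviral transduction and geneticin selection, all cultures were grown with G418, and whether a line was 1 clone is not given in the sources used here. Each line was sequenced without doxycycline (Dox) and after 54 h with Dox, with 1 library per condition, so the comparison of interest was Dox in the MYC line set against Dox in the vector line. No difference could be checked against replicates, and p-values were not calculated. Levels of a gene are listed in the order vector line without Dox, vector line with Dox, MYC line without Dox and MYC line with Dox. A change is a difference of log2(FPKM + 0.1) between 2 libraries, a scale that understates the change of low genes. Genes are said to have risen or fallen where they differed by at least 1.5-fold on this scale.

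The libraries held approximately 34900000 to 41900000 fragments, estimated from the smallest steps between low FPKM values. MYC itself stood at 58.3, 54.8, 76.5 and 87.1 FPKM, a log2 change with Dox of 0.19 in the MYC line and of -0.09 in the vector line. How reads of the transgene were counted is not given in the sources used here. Its log2 difference between the lines was 0.39 without Dox and 0.67 with Dox. All 8 melanocyte markers examined passed the 1 FPKM filter, and PMEL stood between 3394 and 6227 FPKM. With Dox in the MYC line 5 of these 8 markers fell and none rose, where 8.85% of all genes fell and 5.90% rose, and their summed level was 8578, 8467, 8433 and 4666 FPKM. The part of this marker change in the chaperone values below was not tested, and in bulk RNA fewer cells of a type and less RNA per cell cannot be told apart.

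Molecular chaperones bind unfolded or partly folded proteins and keep them from aggregating. HSP70 proteins (the HSPA genes) do so in cycles of ATP hydrolysis that J-domain proteins (the DNAJ genes) start and that nucleotide exchange factors such as HSPH1 reset. HSP90 proteins act later, on clients that are nearly folded, while HSPD1 and HSPE1 form the barrel and the lid of the mitochondrial chaperonin. Each compartment has its own set, with HSPA8 in the cytosol, HSPA5 (also called BiP) in the ER lumen and HSPA9 (mortalin) in the mitochondrial matrix. Transcription of many cytosolic members is induced by the heat shock factor HSF1 through heat shock elements, and that of ER members by the unfolded protein response through ER stress elements. MYC binds DNA with its partner MAX at E-boxes.

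The 250 bases before the annotated start site are shown for 6 abundant members that held any of these 3 motifs. HSPA8 and HSP90AB1, which rank 1 and 2 by mean level, are not shown. HSPA8 held heat shock elements and had a log2 change of 0.18 with Dox in the MYC line. HSP90AB1 held none of the motifs and had a log2 change of 0.42. Sequences are from GRCh37, the build named in the submitters' processing notes, and start sites are those of the canonical transcript in GENCODE release 44. Each is written 5′ to 3′ on the strand of its gene, and capitals mark the E-box CACGTG, a heat shock element or an ER stress element. The window of HSPD1 is chr2:198364565-198364814 on the minus strand and that of HSPE1 is chr2:198364853-198365102 on the plus strand. The window of HSPA9 is chr5:137911091-137911340 on the minus strand and that of HSP90AA1 is chr14:102553382-102553631 on the minus strand. The windows of the ER members are chr9:128003623-128003872 on the minus strand for HSPA5 and chr12:104323938-104324187 on the plus strand for HSP90B1.
HSPD1: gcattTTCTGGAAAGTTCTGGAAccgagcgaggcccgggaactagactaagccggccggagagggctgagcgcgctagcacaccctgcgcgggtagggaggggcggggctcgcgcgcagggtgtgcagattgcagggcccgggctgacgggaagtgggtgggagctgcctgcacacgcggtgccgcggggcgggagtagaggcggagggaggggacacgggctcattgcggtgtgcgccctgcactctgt
HSPE1: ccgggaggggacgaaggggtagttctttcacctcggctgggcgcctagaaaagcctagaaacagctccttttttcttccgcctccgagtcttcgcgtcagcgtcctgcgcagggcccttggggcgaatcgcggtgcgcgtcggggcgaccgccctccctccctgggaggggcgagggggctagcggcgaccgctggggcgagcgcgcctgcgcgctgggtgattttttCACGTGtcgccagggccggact
HSPA9: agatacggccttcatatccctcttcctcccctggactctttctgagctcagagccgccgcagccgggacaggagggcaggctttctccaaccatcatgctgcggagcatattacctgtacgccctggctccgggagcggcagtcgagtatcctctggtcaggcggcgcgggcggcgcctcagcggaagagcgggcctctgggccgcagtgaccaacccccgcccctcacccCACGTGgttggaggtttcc
HSP90AA1: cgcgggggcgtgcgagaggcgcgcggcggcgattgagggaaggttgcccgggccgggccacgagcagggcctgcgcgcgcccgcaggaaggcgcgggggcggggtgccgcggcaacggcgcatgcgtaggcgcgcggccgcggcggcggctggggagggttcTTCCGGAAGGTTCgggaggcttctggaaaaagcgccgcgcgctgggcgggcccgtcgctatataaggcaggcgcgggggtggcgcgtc
HSPA5: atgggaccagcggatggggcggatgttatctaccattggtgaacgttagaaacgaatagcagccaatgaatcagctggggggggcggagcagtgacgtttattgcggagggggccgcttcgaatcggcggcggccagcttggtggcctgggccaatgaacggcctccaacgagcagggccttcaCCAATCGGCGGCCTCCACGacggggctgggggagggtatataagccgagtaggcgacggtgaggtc
HSP90B1: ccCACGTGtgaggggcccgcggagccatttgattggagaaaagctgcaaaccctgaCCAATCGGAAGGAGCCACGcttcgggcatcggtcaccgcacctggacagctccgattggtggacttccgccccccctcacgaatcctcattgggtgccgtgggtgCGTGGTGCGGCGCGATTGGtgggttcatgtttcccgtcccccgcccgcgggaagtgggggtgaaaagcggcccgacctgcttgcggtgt

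HSPD1 and HSPE1 lie head to head on chromosome 2, with start sites at 198364564 and 198365103 and 538 bases between them. The window of HSPD1 held a pair of overlapping heat shock elements that began 245 and 240 bases before its start, and the window of HSPE1 held an E-box that began 22 bases before its start. In HSPA9 an E-box began 19 bases before the start. HSP90AA1 had a heat shock element 88 bases before its start, HSPA5 an ER stress element 66 bases before, and HSP90B1 a pair of ER stress elements and an E-box 248 bases before. The search covered windows from 250 bases before to 50 bases after the start, on both strands, for all 54 members.

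The heat shock element was searched as GAANNTTCNNGAA or its reverse complement TTCNNGAANNTTC. It was found in 7 of the 54 members (13.0%), which were DNAJA1, DNAJB6, HSP90AA1, HSPA6, HSPA8, HSPD1 and HSPH1, against 0.304% of 9858 promoters of genes with at least 1 FPKM and 0.358% of 20136 protein-coding promoters. The ER stress element, searched as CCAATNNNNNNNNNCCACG, was in HSPA5 and HSP90B1 (3.70% of members), against 0.132% of promoters at 1 FPKM and 0.104% of all. E-boxes were in 9 members (16.7%), 4 of them ER members, against 11.0% of promoters at 1 FPKM and 8.73% of all. A match is a run of letters and not a measured binding site. Only exact matches inside the window were counted, so an element with a changed base or further out would be missed. HSPA1A, HSPA1B, DNAJB1 and HSPE1 had no exact match to the heat shock element, which does not mean that they lack one. The overlapping pair before HSPD1 lies outside the window searched for HSPE1. The members with a heat shock element included the largest rise of the 54, that of HSPD1, and also the fall of HSPA6. For Dox in the MYC line, all members had medians of 0.18 with this element and -0.06 without it. Of those with it 14.3% rose, against 12.8% of the others. Within the cytosolic or nuclear class the order of the medians was the other way, at 0.17 with and 0.32 without. There 0 of the 6 members with the element rose, against 3 of those without (15.0%). Members with an E-box had a median log2 change of 0.18 with Dox in the MYC line and those without it -0.06, while over all genes at 1 FPKM the medians were 0.04 with and -0.04 without an E-box. Among ER members alone the medians were -0.25 with and -0.17 without an E-box, and 1 of the 9 members with an E-box rose (11.1%) against 6 of the others (13.3%).

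With Dox in the MYC line, most mitochondrial and most cytosolic or nuclear members were higher, and ER members were lower. Of the 54 members 7 rose (13.0%) and 5 fell (9.26%), where 5.90% of all genes rose and 8.85% fell. The 7 that rose were HSPD1, HSPE1, DNAJA3 and DNAJC11 of the mitochondria and DNAJC2, DNAJC21 and HSPA1B of the cytosol or nucleus. The 5 that fell were DNAJB5, HSPA6 and DNAJB2 of the cytosol or nucleus, the mitochondrial DNAJC28 and the ER member HSPA13. After the libraries were rescaled to equal summed FPKM, the split was 5 higher and 6 lower.

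The median log2 change was 0.37 over the 9 mitochondrial members, 0.21 over the 26 cytosolic or nuclear members, -0.19 over the 13 ER members and -0.22 over the 6 others, beside -0.03 over all genes. In the vector line the same medians were 0.02, 0.04, 0.00 and 0.02, beside 0.01 over all genes. With Dox in the MYC line the change was below 0 for 13 of 13 ER members as deposited and for 12 after division by the median ratio of the libraries. It was above 0 for 7 of 9 mitochondrial members as deposited and for 6 after rescaling to the same sum, and above 0 for 19 of 26 cytosolic or nuclear members under each scaling tried. Over all genes 46.8% were above 0 and 53.1% below.

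**Figure D1:**
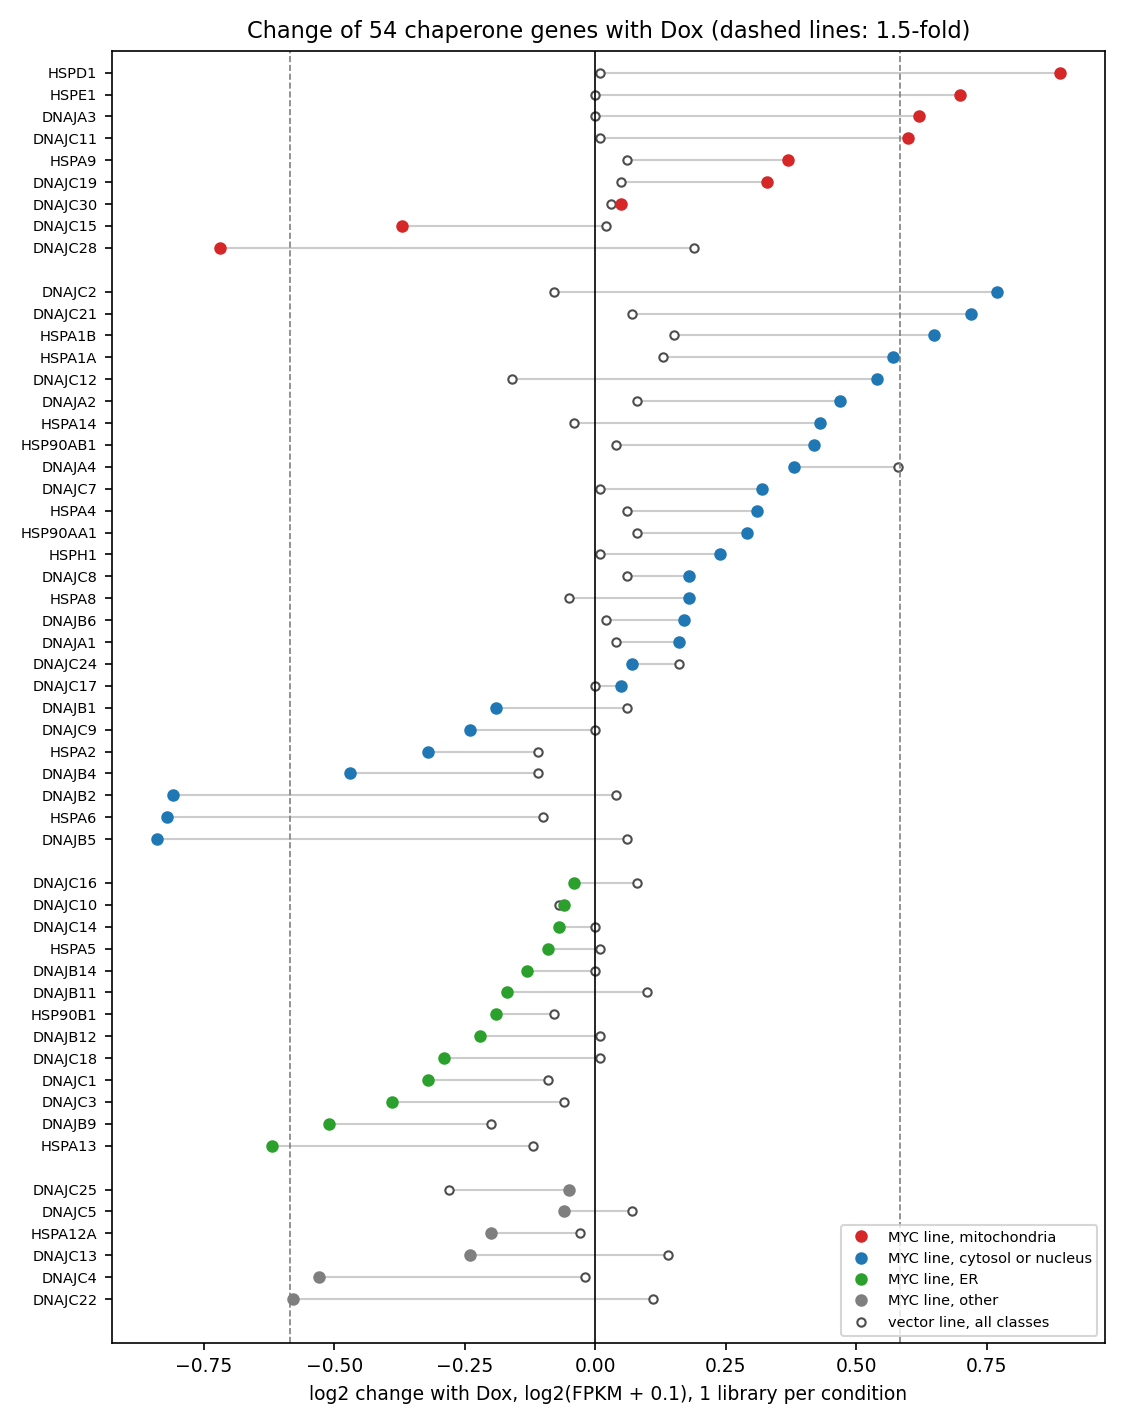
Log2 change with Dox (difference of log2(FPKM + 0.1), x axis) of each of the 54 members in the MYC line (filled points, coloured by compartment) and in the vector line (open points), with 1 library per condition and dashed lines at 1.5-fold. Filled points run from -0.84 (DNAJB5) to 0.89 (HSPD1), all 13 ER points lie left of 0, and no open point passes a dashed line.

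Both subunits of the mitochondrial chaperonin rose. HSPD1, the barrel subunit (HSP60), stood at 528, 533, 586 and 1085 FPKM, with the MYC line with Dox apart from the other 3 libraries. This was a rise of 1.85-fold, a log2 change of 0.89 with an approximate counting error of 0.0077, against 0.01 in the vector line. Counting errors cover the sampling of fragments only and not the difference between cultures. HSPE1, the lid subunit (HSP10), stood at 594, 593, 604 and 982 FPKM and rose 1.63-fold, a log2 change of 0.70 against -0.00 in the vector line. Among members, HSPD1 was below HSPA8 in 3 libraries and above it, by 1085 to 1059 FPKM, in the MYC line with Dox.

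The summed level of both chaperonin subunits was 1122, 1126, 1189 and 2067 FPKM, a ratio of 1.74 with Dox in the MYC line and of 1.0 in the vector line. HSPD1 changed somewhat more than HSPE1, so that the ratio of their FPKM levels was 0.889, 0.90, 0.970 and 1.11. In the annotation the longest model of HSPD1 runs from 198351308 to 198381461 and covers HSPE1 on the opposite strand. Whether reads were counted by strand is not given in the sources used here, and without strand, reads from their shared bases cannot be told apart. The annotation also holds 18 pseudogene copies of HSPD1 and 26 of HSPE1, which could take or give reads.

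HSPA9, the HSP70 of the matrix that pulls proteins in through the inner membrane, stood at 137, 143, 133 and 172 FPKM. Its log2 change was 0.37 in the MYC line and 0.06 in the vector line, under the 1.5-fold limit in both. The level of chaperonin to HSPA9 thus went from 8.92 without Dox to 12 with Dox in the MYC line, and was 8.19 and 7.90 in the vector line. DNAJA3 (TID1), the J-domain partner of HSPA9, stood at 30.0, 29.9, 29.0 and 44.5 FPKM and rose 1.53-fold. DNAJC11, an outer membrane protein associated with cristae organisation, stood at 40.4, 40.8, 38.8 and 58.9 FPKM and rose 1.51-fold. The latter rises were close to the limit, with log2 changes of 0.62 and 0.60 that became 0.57 and 0.55 after rescaling to the same sum.

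Not every mitochondrial member was higher. DNAJC19, a subunit of the import motor, had a log2 change of 0.33, and DNAJC30 of 0.05. DNAJC15, a relative of DNAJC19 that also sits at the import channel, stood at 19.6, 19.8, 19.1 and 14.7 FPKM, a log2 change of -0.37 that did not pass 1.5-fold. DNAJC28 stood at 0.992, 1.15, 1.29 and 0.740 FPKM and fell, with a log2 change of -0.72 and a counting error of 0.27. With a mean of 1.04 FPKM it was the member just inside the filter, and its log2 change was -0.40 with a pseudocount of 1. HSPA4L was the member just outside the filter, with a mean of 0.838 FPKM and 1.20 FPKM in the MYC line with Dox.

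The mitochondrial sum was 1394, 1406, 1453 and 2409 FPKM, a ratio of 1.66 with Dox in the MYC line and of 1.01 in the vector line. Mitochondrial members made up 25.8%, 25.8%, 26.2% and 34.6% of the summed level of all 54 members. Of these, HSPD1 and HSPE1 together held 21.4% of the members' sum in the MYC line without Dox and 29.7% with Dox. All 54 members together held 0.771%, 0.765%, 0.802% and 0.974% of the summed FPKM of the library.

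**Figure D2:**
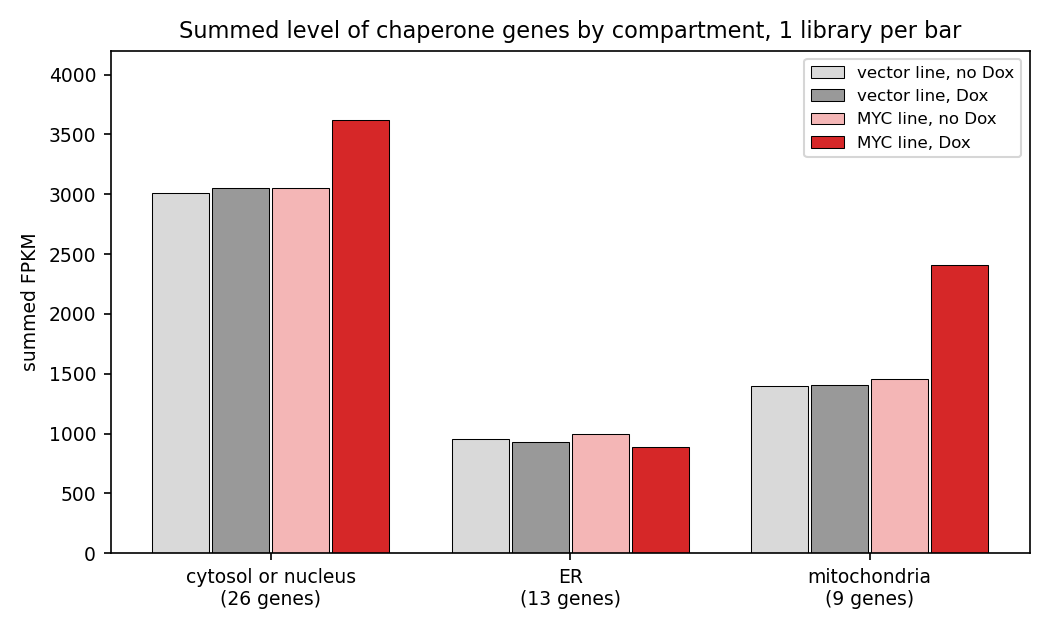
Summed FPKM (y axis, from 0) of the members of each compartment in the 4 libraries, 1 library per bar and therefore without error bars. The mitochondrial bar of the MYC line with Dox reaches 2409 against 1394 to 1453 in the other 3 libraries, the cytosolic or nuclear bar reaches 3625 against 3011 to 3055, and the ER bar is the lowest of its group at 888 against 929 to 996.

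In the cytosol and nucleus the most abundant chaperones were higher by less than 1.5-fold. HSPA8 (HSC70), the constitutive HSP70, stood at 977, 946, 936 and 1059 FPKM, a log2 change of 0.18 in the MYC line and of -0.05 in the vector line. HSP90AB1, the constitutive cytosolic HSP90, stood at 657, 675, 680 and 910 FPKM, a log2 change of 0.42 against 0.04 in the vector line. HSP90AA1, its stress-inducible paralog, stood at 454, 479, 482 and 591 FPKM, a log2 change of 0.29 against 0.08. For each of the 3 genes the MYC line with Dox was the highest library. The sum of both cytosolic HSP90 genes was 1.29 times as high with Dox in the MYC line and 1.04 times as high in the vector line.

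Among the inducible HSP70 genes, HSPA1B rose and the low HSPA6 fell. HSPA1B stood at 41.8, 46.4, 47.7 and 74.7 FPKM, a log2 change of 0.65 against 0.15 in the vector line. HSPA1A stood at 49.2, 53.7, 55.3 and 82.2 FPKM, a log2 change of 0.57, just under the 1.5-fold limit, against 0.13. The coding sequences of these paralogs, neighbours on chromosome 6, are identical at 1922 of 1926 bases (99.8%), so reads may be split between them. Each value already adds 5 entries of its symbol, and how reads were shared among those is not given. The sum of both genes depends less on the split between them. That sum was 90.9, 100, 103 and 157 FPKM, a ratio of 1.52 with Dox in the MYC line and of 1.10 in the vector line. HSPA6, a strictly inducible HSP70, stood at 3.82, 3.55, 4.64 and 2.58 FPKM and fell, with a log2 change of -0.82 and a counting error of 0.12, against -0.10 in the vector line.

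The largest rises in this class were those of J-domain proteins tied to the ribosome. DNAJC2 (zuotin), which recruits HSP70 to nascent chains at the ribosome, stood at 15.7, 14.9, 16.6 and 28.2 FPKM and rose 1.70-fold, a log2 change of 0.77 against -0.08 in the vector line. DNAJC21, a factor in the maturation of the large ribosomal subunit, stood at 6.31, 6.64, 6.55 and 10.8 FPKM and rose 1.64-fold, a log2 change of 0.72 against 0.07. HSPA14, the HSP70-like partner of DNAJC2 at the ribosome, had a log2 change of 0.43, under the limit. These roles were read after the values were seen and were not a list of their own.

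DNAJC12, a cochaperone of aromatic amino acid hydroxylases, stood at 3.18, 2.84, 3.31 and 4.85 FPKM, a log2 change of 0.54 (counting error 0.15). DNAJA4 stood at 9.41, 14.2, 10.0 and 13.1 FPKM, and was the member with the largest Dox difference in the vector line. Its log2 change was 0.58 there, just under the 1.5-fold limit, and 0.38 in the MYC line. Its level with Dox was thus above its level without Dox in both lines. DNAJA2 and DNAJC7, cochaperones of cytosolic HSP70 and HSP90, had log2 changes of 0.47 and 0.32 in the MYC line and of 0.08 and 0.01 in the vector line.

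Beside HSPA6, the falls in this class were those of DNAJB2 and DNAJB5. DNAJB2, a J-domain protein with ubiquitin-interacting motifs that passes clients to the proteasome, stood at 67.9, 69.7, 65.5 and 37.4 FPKM, with the other 3 libraries close together. It fell to 0.572 of its level, a log2 change of -0.81 (counting error 0.027), against 0.04 in the vector line. DNAJB5 stood at 2.48, 2.60, 2.83 and 1.54 FPKM and fell, with a log2 change of -0.84 and a counting error of 0.14. DNAJB1 (HSP40), the main inducible J-domain partner of HSPA1A and HSPA8, stood at 79.1, 82.6, 86.6 and 75.9 FPKM, a log2 change of -0.19. DNAJB4 had a log2 change of -0.47 and the testis-enriched HSPA2 of -0.32, neither past the limit.

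**Figure D3:**
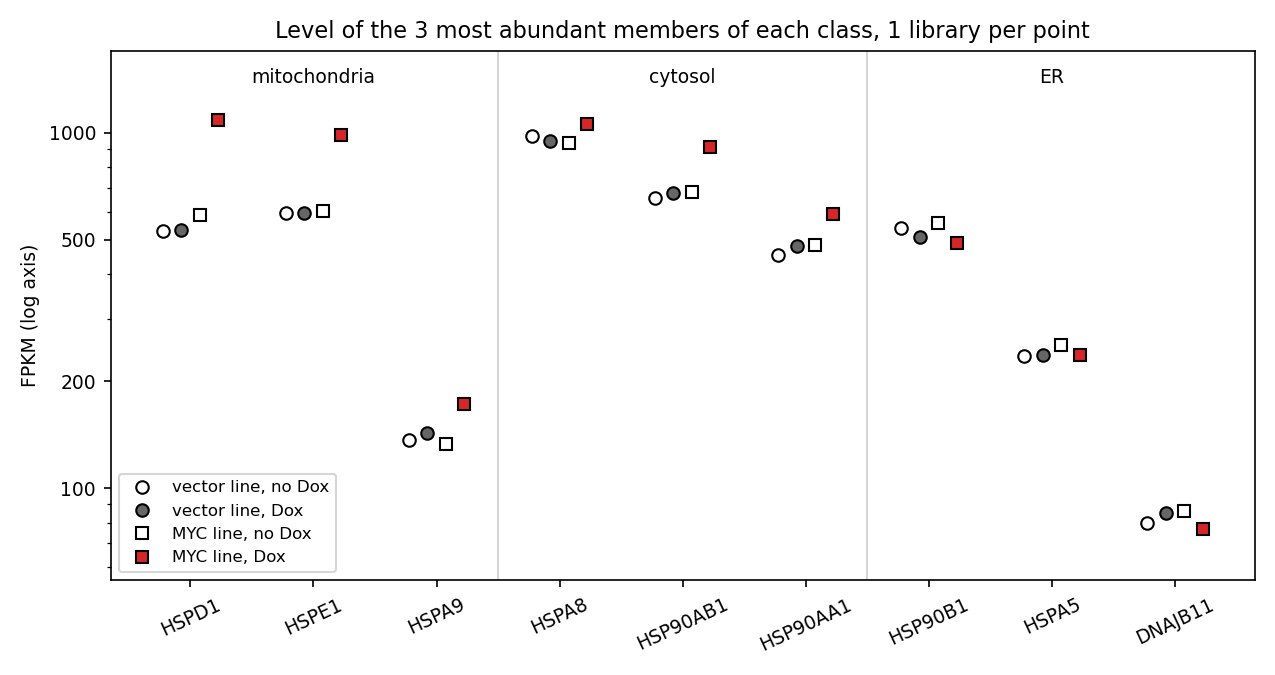
Level (FPKM, log axis) of the 3 most abundant members of the mitochondria, cytosol and ER in each of the 4 libraries, 1 library per point. The MYC line with Dox is the highest library for HSPD1 (1085 FPKM), HSPE1, HSPA9, HSPA8, HSP90AB1 and HSP90AA1, and the lowest for HSP90B1 (489 FPKM) and DNAJB11 (76.7 FPKM).

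In the ER the most abundant members had log2 changes within 0.2 of 0. HSP90B1 (GRP94), the HSP90 of the ER lumen, stood at 538, 510, 556 and 489 FPKM, a log2 change of -0.19 in the MYC line and of -0.08 in the vector line. HSPA5 (BiP), the HSP70 of the lumen and a standard readout of the unfolded protein response, stood at 236, 237, 252 and 237 FPKM, a log2 change of -0.09 against 0.01. Its level with Dox in the MYC line lay within the range of the other libraries. DNAJB11 (ERdj3), the J-domain partner of HSPA5 for secreted proteins, stood at 79.8, 85.3, 86.0 and 76.7 FPKM, a log2 change of -0.17 against 0.10.

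HSPA13 was the ER member that fell past 1.5-fold. It is an HSP70-like ATPase of microsomes and stood at 8.03, 7.36, 8.93 and 5.78 FPKM, a log2 change of -0.62 (counting error 0.061), against -0.12 in the vector line. This call was lost with a pseudocount of 1 (-0.55) and after division by the median ratio (-0.57). DNAJB9 (ERdj4), a BiP cochaperone induced in ER stress, stood at 16.4, 14.3, 14.9 and 10.5 FPKM, a log2 change of -0.51 against -0.20 in the vector line. DNAJC3 (P58IPK), which also works with BiP in the lumen, had a log2 change of -0.39, and DNAJC16, the ER member nearest to 0, stood at 3.84, 4.06, 3.68 and 3.59 FPKM with a log2 change of -0.04.

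The ER sum was 954, 929, 996 and 888 FPKM, a ratio of 0.892 with Dox in the MYC line and of 0.973 in the vector line. Its share in all members was 17.6%, 17.1%, 17.9% and 12.7%. The share of the cytosolic or nuclear members in the MYC line was also lower with Dox, at 52.0% against 54.9% without, although their sum was higher. Shares depend on the whole pool, in which the mitochondrial part was larger with Dox. Chaperones of different compartments were also compared by ratio. The FPKM ratio of HSPD1 to HSP90B1 was 0.981, 1.05, 1.05 and 2.22, and that of HSPA9 to HSPA5 was 0.581, 0.601, 0.529 and 0.724. Within HSP90, the share of the cytosolic HSP90AB1 was 39.8%, 40.6%, 39.6% and 45.7%, and that of the ER gene HSP90B1 was 32.6%, 30.6%, 32.4% and 24.6%. Within the HSPA genes the share of HSPA8 differed less, at 61.4%, 60.0%, 59.4% and 59.1%, and that of HSPA1A with HSPA1B was 5.72%, 6.36%, 6.54% and 8.75%.

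J-domain genes were set against the HSPA genes of the same compartment class by summed level. The ER class includes members that face the cytosol, so these are ratios of class sums and not of partners. In mitochondria the ratio of summed DNAJ to summed HSPA levels was 0.985, 0.963, 0.976 and 0.991. In the cytosol or nucleus it was 0.559, 0.586, 0.585 and 0.529, and in the ER 0.708, 0.712, 0.686 and 0.642. By J-domain class, the log2 change in the MYC line was above 0 for 4 of 4 DNAJA genes (median 0.42) and below 0 for 8 of 9 DNAJB genes (median -0.22), with the same counts under each scaling tried. Over all genes 46.8% were above 0 and 53.1% below. J-domain class and compartment overlap, since DNAJB9, DNAJB11, DNAJB12 and DNAJB14 are ER members and DNAJA3 is mitochondrial. Of the cytosolic or nuclear DNAJB genes only DNAJB6 was above 0. In the vector line 3 of 4 DNAJA genes and 7 of 9 DNAJB genes were above 0, and between both lines with Dox 3 of 4 DNAJA genes were, with DNAJA4 at -0.12. The 24 DNAJC genes were spread from -0.72 to 0.77 (median -0.05).

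The 6 members of other or mixed sites were all below 0 with Dox in the MYC line, and none passed 1.5-fold. DNAJC22 stood at 3.77, 4.09, 4.35 and 2.88 FPKM, a log2 change of -0.58 as deposited that passed the limit after rescaling to the same sum (-0.62) and with a pseudocount of 0.01 (-0.59). DNAJC25 stood at 8.95, 7.38, 8.77 and 8.47 FPKM, with a log2 change of -0.05 in the MYC line and of -0.28 in the vector line. DNAJC4 stood at 10.3, 10.1, 9.26 and 6.40 FPKM, a log2 change of -0.53 (counting error 0.11). DNAJC5, the cysteine string protein of secretory vesicles, had a log2 change of -0.06, and DNAJC13, an endosomal protein, of -0.24.

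The other 3 libraries differed little from each other. No member passed 1.5-fold with Dox in the vector line, where 0.709% of all genes rose and 0.440% fell, and none differed by 1.5-fold between the untreated lines, where 0.592% of all genes were higher and 0.287% lower in the MYC line. The log2 range over these 3 libraries had a median of 0.10 over the 54 members, was under 0.2 for 46 of them and ran from 0.01 (DNAJC7) to 0.58 (DNAJA4). The level in the MYC line with Dox lay above all 3 for 24 members and below all 3 for 23, 44.4% and 42.6% of members, where 40.2% of all genes lay above and 42.9% below. These shares were near those of all genes, but the compartments divided, with 6 above and 2 below of 9 mitochondrial members, 18 and 7 of 26 cytosolic or nuclear members, and 0 and 10 of 13 ER members.

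Set against the vector line with Dox, 7 members were higher in the MYC line with Dox (13.0%) and 3 lower (5.56%), where 6.50% of all genes were higher and 8.62% lower. This comparison shares a library with the one above and is no separate evidence. HSPD1 had a log2 difference of 1.02, DNAJC2 of 0.92, DNAJC12 of 0.75, HSPE1 of 0.73, DNAJC21 of 0.70, HSPA1B of 0.68 and HSPA1A of 0.61. On the lower side were DNAJB2 with -0.90, DNAJB5 with -0.72 and DNAJC4 with -0.65. DNAJA3 and DNAJC11 were under 1.5-fold here, with 0.57 and 0.53, as was HSPA13 with -0.34. The 13 ER members were not all lower here, with 3 above 0 and 10 below (median -0.18). Their summed level was 0.956 times as high, with log2 differences of 0.00 for HSPA5 and -0.06 for HSP90B1.

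The 10 members that did not pass the filter stayed low in every library. DNAJB3 and DNAJB8 were listed at 0 in all 4 libraries. The others were HSPA1L, HSPA4L, HSPA7, HSPA12B, DNAJB7, DNAJB13, DNAJC6 and DNAJC27, and of these only HSPA4L exceeded 1 FPKM in any library.

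Other genes of these pathways were counted by list, and these counts stand beside 5.90% of all genes that rose and 8.85% that fell. Of 13 genes for mitochondrial chaperone partners and proteases, 4 rose and none fell with Dox in the MYC line (median log2 change 0.39, against 0.09 in the vector line). TRAP1, the mitochondrial HSP90 paralog, stood at 59.7, 66.4, 59.9 and 152 FPKM, a log2 change of 1.34, larger than that of any member. The nucleotide exchange factors of HSPA9, GRPEL1 and GRPEL2, had log2 changes of 0.85 and 0.60, and CLPX, the unfoldase of the matrix protease, of 0.71. After rescaling to the same sum 3 of the 13 rose, and after division by the median ratio 5. The change was above 0 for 13 of 13 as deposited and for 12 with the same sum.

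Of 17 ER folding genes, P4HB (protein disulfide isomerase) was the 1 that fell, a share under the 8.85% of all genes, and none rose, with a median log2 change of -0.22 against -0.02 in the vector line. P4HB stood at 412, 395, 426 and 283 FPKM, a log2 change of -0.59 that was under the limit after median ratio or upper quartile scaling. The change was below 0 for 14 of 17 as deposited and for 12 after division by the median ratio.

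Of 24 genes for HSF factors and cytosolic HSP70 and HSP90 cochaperones, 3 rose and none fell, where 5.90% of all genes rose and 8.85% fell (median log2 change 0.28, against 0.04 in the vector line). FKBP4, an HSP90-bound immunophilin, stood at 32.4, 34.1, 33.4 and 76.9 FPKM, a log2 change of 1.20. BAG2, an inhibitor of the HSP70-bound ubiquitin ligase CHIP, and PPID, another HSP90-bound immunophilin, had log2 changes of 0.93 and 0.91. HSF1, the regulator of the heat shock response, stood at 31.6, 35.5, 33.2 and 38.8 FPKM, a log2 change of 0.23 against 0.17 in the vector line.

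Of 17 genes known to be induced by HSF1, 4 rose (HSPA1B, HSPD1, HSPE1 and FKBP4) and HSPA6 fell, beside 5.90% and 8.85% of all genes, with 12 above 0 and 5 below (median log2 change 0.29, against 0.01 in the vector line). This list shares members with the chaperones above. The 5 below 0 were HSPA6, DNAJB4, DNAJB1, HSPB1 and BAG3, from -0.82 to -0.12. Of 10 genes listed as small heat shock proteins, 3 passed the filter, and none of these rose or fell. They were HSPB1, HSPB8 and HSPB11, with log2 changes of -0.13, -0.39 and -0.36. HSPB11 was counted by its symbol, and its function was not examined.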

How the data were processed

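RNA-Seq of 4 libraries, 1 per condition, was analysed from the gene table that the authors deposited, whose FPKM values are per kilobase of transcript and per 1000000 mapped fragments. The submitters' processing notes name TopHat2 2.0.14, Cufflinks and hg19/GRCh37. The annotation, the strand setting and the treatment of reads with several matches are not given in the sources used here. The table had 27032 rows, of which 1 had no gene name and was left out. The 609 symbols with several rows were summed, among them HSPA1A and HSPA1B.

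Groups came from the labels. Since FPKM values are not counts and each condition has 1 library, no count model and no test was run. Changes are differences of log2(FPKM + 0.1) over genes that averaged 1 FPKM or more, read against a 1.5-fold limit, and the share of all genes past that limit is given beside each count. The relative depth was the most frequent ratio between libraries of genes detected in every library and under 0.05 FPKM in each. In a separate step, low genes were taken whose values, scaled by this depth, are whole multiples of a single step, up to 12 and within 1.2%. With transcript lengths of 143 genes these single steps gave approximate fragment numbers and counting errors, which cover the sampling of fragments only. Of the 54 members above the filter, 35 overlap another annotated gene.

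The members, compartments and lists were chosen with earlier results of these data known. Values in each library were given for the 3 most abundant members of the mitochondria, cytosol or nucleus and ER, for each member past 1.5-fold in any contrast, and for the members with the highest and the lowest change of each class. Of other lists, up to 4 genes past 1.5-fold per direction and HSF1 were named by rule. DNAJA4, DNAJB1, DNAJB9, DNAJC15, HSPA4L and members named with a change alone were added after their values were seen.

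Promoters were read from the GRCh37 genome with canonical starts and gene models of GENCODE release 44. Alternatives were pseudocounts of 1 and 0.01, rescaling to the same sum, the median ratio or the upper quartile, filters at 5 FPKM or none, a 2-fold limit, means in place of medians, other class boundaries and other handling of repeated symbols. Only the calls past the fold limit were tested on simulated data, with 2-fold changes, the sampling of fragments and no difference between cultures. Python 3.11.15, numpy 2.4.6, pandas 2.3.3, matplotlib 3.10.9 and Biopython 1.88 were used.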

Additional observations from a re-analysis of the deposited data

Results flagged for a closer look

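Of the 7 members that rose and the 5 that fell in the MYC line, 6 had a change of opposite sign in the vector line. Each line had 1 library per condition. The share of all genes with opposite signs was not counted. In the vector line 54.2% of all genes were above 0 and 45.6% below. The values given are the log2 change in the MYC line minus that in the vector line, and whether the lines differ was not tested.

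On the higher side, DNAJC2 had a difference of 0.84, from changes of 0.77 and -0.08. HSPE1 had a difference of 0.70 and DNAJA3 of 0.62, and in both the change in the vector line was -0.00, so the opposite sign carries little. On the lower side, DNAJC28 had a difference of -0.91, from changes of -0.72 and 0.19, at a mean level of 1.04 FPKM. DNAJB5 had a difference of -0.90, from changes of -0.84 and 0.06, at levels of 1.54 to 2.83 FPKM. DNAJB2 had a difference of -0.84, from changes of -0.81 and 0.04, at levels of 37.4 to 69.7 FPKM, which makes it the best measured of the 3. The vector line changes of DNAJC2, DNAJB5 and DNAJB2 were smaller than the robust SD of that change over all genes (0.107). Their opposite signs therefore carry little as well.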

How the results depend on the processing

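Of 832 recalculated values, 780 stayed the same by the following rule. A call past 1.5-fold had to be kept. Values without such a call had to move by less than the robust SD over genes of the vector line change (0.107). Counts had to move by no more than 1.5 times. No gene change past 1.5-fold reversed its direction, but these settings do not test that. A pseudocount does not change a sign, and rescaling shifted the median of all genes only to between -0.07 and 0.02. Below the limit signs did change, as for DNAJC16 in the MYC line (-0.04 as deposited, 0.01 after division by the median ratio). No paired analysis was possible because there is 1 library per condition.

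With a pseudocount of 1, 3 members fell with Dox in the MYC line in place of 5 (DNAJC28 at -0.40 and HSPA13 at -0.55 no longer did), and 1 member was lower in the comparison of both lines with Dox. Over all genes the vector line then had 43 higher and 22 lower, and the untreated lines 34 and 21. With a pseudocount of 0.01, 1 member (DNAJA4) rose in the vector line.

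With a filter at 5 FPKM, 2 members fell in the MYC line, and over all genes 436 rose and 549 fell there, 25 and 8 in the vector line, 16 and 10 between untreated lines and 438 and 570 between both lines with Dox. The mitochondrial median was then 0.60 in the MYC line and 0.53 between both lines with Dox, and that of the members of other sites -0.06 and -0.13. Without a filter 1 member rose in the vector line, the members of other sites had a median of -0.37 between both lines with Dox, and over all genes 1138 rose and 1748 fell in the MYC line, 529 and 387 in the vector line, 501 and 347 between untreated lines and 1295 and 1761 between both lines with Dox.

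At a 2-fold limit 0 members rose and 0 fell in the MYC line, 1 was higher and 0 were lower between both lines with Dox, and over all genes the counts were 117 and 228, 28 and 15, 24 and 18, and 132 and 231 in the same order of comparisons. Rescaling moved the median of all genes in the MYC line from -0.03 to -0.07 (same sum) or 0.02 (median ratio), with 31.4% and 48.9% of calls on the higher side against 40.0% as deposited. The members split 5 higher to 6 lower with the same sum and 8 to 4 with the median ratio. With 1 library per condition, the depth limits only the precision within a library, and the difference between cultures is unknown.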
